A study of Mus musculus with 64 samples.

Results

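The nuclear genes of complexes I, II and III of the respiratory chain and of ATP synthase were followed across 4 cell populations of the mouse heart, 2 ages at surgery and 2 operations. The members were the protein-coding genes whose symbols start with Nduf, a subunit letter (a, b, c, s or v) and a digit, the 4 genes Sdha to Sdhd, and those that start with Uqcr or Atp5. The rule was met by 66 of the 20637 genes in the deposited table, of which 37 carry complex I names, 4 belong to complex II (succinate dehydrogenase), 8 to complex III (the cytochrome bc1 complex) and 17 carry ATP synthase names. Cytochrome oxidase genes were left out by the rule. A few symbols do not match the protein's present place: Ndufa4 is now counted as a cytochrome oxidase subunit, and Atp5sl encodes an assembly factor of complex I.

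The respiratory chain sits in the inner mitochondrial membrane. Complex I takes electrons from NADH and complex II from succinate, coenzyme Q carries them to complex III, cytochrome c passes them on to cytochrome oxidase, and ATP synthase uses the proton gradient that complexes I, III and cytochrome oxidase build up. Complex II is encoded in the nucleus alone, whereas the other complexes also hold subunits encoded in mitochondrial DNA, which are not members here. Heart muscle makes most of its ATP by this route, and mouse cardiomyocytes move from glycolysis towards fatty acid oxidation in the weeks after birth.

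Each population gave 4 groups of 4 libraries: P56 MI, P56 sham, P1 MI and P1 sham, 64 libraries in all. MI denotes myocardial infarction, which at P56 was made by ligating the descending branch of the left coronary artery for good; sham animals were operated on in the same way with no infarction. All mice were of the CD1 strain with no genetic change or drug named, and cells were taken 3 days after surgery on postnatal day 1 (P1) or postnatal day 56 (P56). At P1 each preparation pooled 6 ventricles that were cut up and stirred in enzyme, whereas at P56 the animals were males whose hearts were perfused with it, so age cannot be told apart from the isolation and perhaps from sex. Cardiomyocytes were the dense layer of a Percoll gradient, and the light layer was sorted by surface antigens into fibroblasts (CD90), leukocytes (CD45) and endothelial cells (CD31). Nothing in the labels ties replicates to separate animals or pools; p-values below therefore rest on the variation among these libraries, part of which may be technical.

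Values are the deposited normalised read counts in CPM (read counts over the authors' effective library size), from which 9.59 to 27.5 M reads per library were recovered. A count of 3 reads was worth 0.102 to 0.409 CPM, which sets a floor from counting error alone. The marker lists of fibroblasts, leukocytes and endothelial cells each stood highest in their own population. The 12 fibroblast markers summed to 64656 CPM or more in every fibroblast library and to at most 8269 CPM elsewhere. The 12 leukocyte markers summed to 4062 CPM or more in leukocytes and at most 1027 CPM elsewhere. The 12 endothelial markers summed to 9342 CPM or more in endothelial cells and at most 4736 CPM elsewhere. Within P1 sham leukocytes these lists did not stand apart. Leukocyte markers summed to 4062 to 5300 CPM there, fibroblast markers to 3905 to 6316 CPM and endothelial markers to 3991 to 4736 CPM. The 14 cardiomyocyte markers, mostly sarcomere genes, summed to 46058 CPM or more in cardiomyocytes, but P56 sham leukocytes reached 76959 to 210360 CPM, and none of the 14 was at 0 throughout any group. Nuclear 18S ribosomal RNA exceeded 5% of the reads in 7 libraries. In these bulk samples fewer cells of a type and less RNA per cell cannot be told apart.

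Regulatory sequence can be shown first for subunit c, which forms the rotating ring of ATP synthase. It is encoded by the near-duplicate genes Atp5g1, Atp5g2 and Atp5g3, whose precursors are processed to the same mature protein, so the 3 promoters are set side by side here and their RNA levels further on. The 250 bases before each RefSeq start (GRCm38.p6) are given 5′ to 3′ on the minus strand, on which all 3 genes lie, with the matched motifs in capitals. The Atp5g1 entry, at chr11:96075632-96075881, held 5 CCAAT matches beginning 229, 126, 95, 92 and 69 bases before the start, the fourth of them on the other strand and overlapping the third. The Atp5g2 entry, at chr15:102671048-102671297, held the NRF1 motif 42 bases before the start; that RefSeq start lies inside the Ensembl gene. The Atp5g3 entry, at chr2:73911327-73911576, held a CCAAT match 72 bases and an ERR motif on the other strand 52 bases before the start.
Atp5g1: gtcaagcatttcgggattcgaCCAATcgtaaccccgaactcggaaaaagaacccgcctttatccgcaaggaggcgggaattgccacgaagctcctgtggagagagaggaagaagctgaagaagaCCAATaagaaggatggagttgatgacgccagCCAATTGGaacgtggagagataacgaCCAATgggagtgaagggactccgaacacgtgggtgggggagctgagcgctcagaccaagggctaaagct
Atp5g2: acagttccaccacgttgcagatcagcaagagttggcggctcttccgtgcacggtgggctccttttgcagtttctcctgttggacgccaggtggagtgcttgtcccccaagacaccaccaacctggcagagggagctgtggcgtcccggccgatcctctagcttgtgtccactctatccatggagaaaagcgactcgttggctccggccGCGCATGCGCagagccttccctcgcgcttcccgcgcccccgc
Atp5g3: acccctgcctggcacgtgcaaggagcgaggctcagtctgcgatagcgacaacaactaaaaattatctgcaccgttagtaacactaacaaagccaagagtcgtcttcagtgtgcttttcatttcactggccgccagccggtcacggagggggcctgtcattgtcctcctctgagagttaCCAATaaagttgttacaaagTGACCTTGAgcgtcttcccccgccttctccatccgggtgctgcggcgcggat
A promoter was found for 53 of the 66 members, and 6 motifs were searched on both strands in the same 250 bases, next to 27025 RefSeq promoters. The NRF1 motif (GCGC, AT and GCGC joined), bound by a regulator of respiratory genes, stood in 3 member promoters (5.66%) and 0.781% of all promoters. The ERR motif TCAAGGTCA of the estrogen-related receptors stood in 1 (1.89%) and 0.366%. The ETS motif CCGGAAGT, read by GABPA, stood in 3 (5.66%) and 2.93%, and the YY1 motif AAGATGGCG in 0 and 0.607%. TATAAA stood in 5 (9.43%) and 13.0%, and CCAAT in 22 (41.5%) and 34.5%. Members with CCAAT had a median log2 difference with age in cardiomyocytes of 1.84, and members without it 1.82. A match describes letters in this window and is not a measured binding site.

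The first comparison placed the members in cardiomyocytes next to the other populations in sham hearts. Of the 66 members 63 were higher in cardiomyocytes than in each of fibroblasts, leukocytes and endothelial cells at P56, and 63 at P1, with adjusted p under 0.05 in all 3 tests (limma with a mean-variance trend on log2(CPM + 0.5) over the 32 sham libraries, Benjamini-Hochberg over 17618 genes). Over all genes tested the shares were 26.8% at P56 and 16.4% at P1. The exceptions at both ages were Ndufa4l2, Atp5g2 and Atp5l. The median log2 difference of the members in P56 hearts was 4.93 over fibroblasts, 4.52 over endothelial cells and 3.15 over leukocytes, and in P1 hearts 2.67, 2.95 and 2.17. Uqcrq, a small subunit of complex III, had among the largest P56 differences, 6.15 ± 0.15 over fibroblasts, 5.56 ± 0.15 over endothelial cells and 4.12 ± 0.15 over leukocytes (log2 ± SE).

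Expressed as a share of the cardiomyocyte level, the median member in P56 sham hearts stood at 3.24% in fibroblasts, 4.25% in endothelial cells and 11.5% in leukocytes, and in P1 sham hearts at 15.3%, 12.6% and 21.7%. The cardiomyocyte markers gave medians of 0.806%, 3.00% and 20.7% at P56 and 0.662%, 1.46% and 21.7% at P1 in the same populations. With libraries scaled to all reads the P56 member medians were 8.37%, 12.1% and 25.2% and the P1 medians 15.7%, 15.7% and 23.9%, and the marker medians at P56 were 2.07%, 8.42% and 44.0%. The log2 median over fibroblasts at P56 was then 3.57. Under both scalings, in fibroblasts the members stood above the marker level at both ages, and in leukocytes they stood below it at P56 and close to it at P1. In P56 sham leukocytes the share ranged widely by gene: Ndufs1 and Sdha stood at 50.0% and 43.0% of the cardiomyocyte level, Uqcrq and Ndufa11 at 5.71% and 6.87%.

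**Figure D1:**
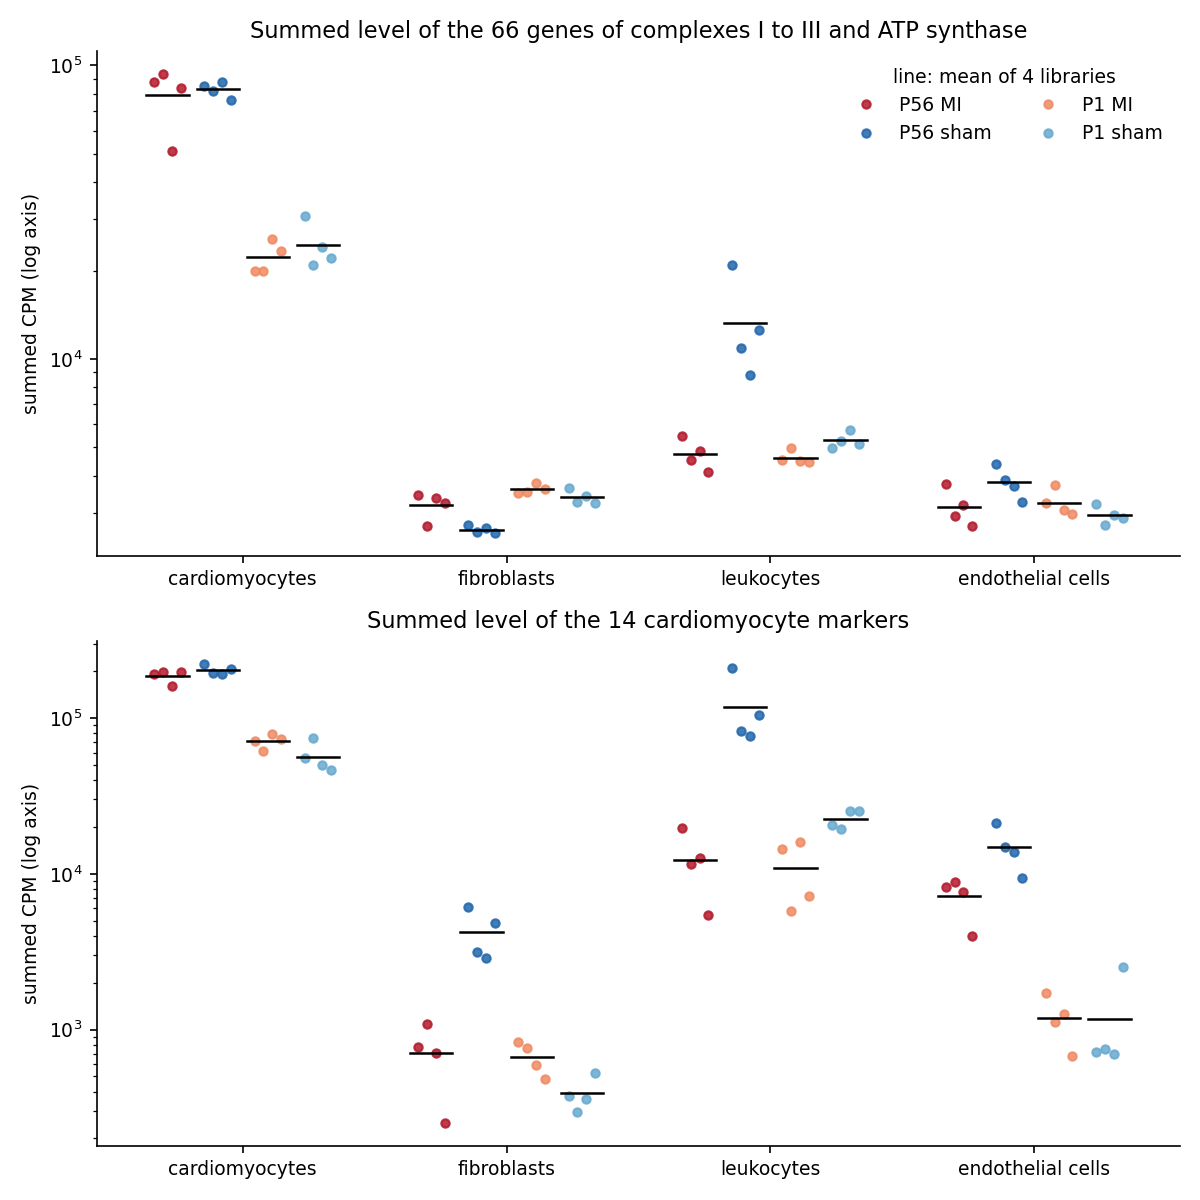
The upper values are the summed CPM of the 66 members and the lower ones the summed CPM of the 14 cardiomyocyte markers in each of the 64 libraries, on log axes, by population, with P56 MI, P56 sham, P1 MI and P1 sham from left to right and a line at the mean of 4. The cardiomyocyte libraries of P56 hearts stand highest in members, and the P56 sham leukocyte libraries stand close to cardiomyocytes in markers (76959 to 210360 CPM).

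Within P56 sham cardiomyocytes the members spanned more than 3 orders of magnitude per length of the principal GENCODE M21 transcript. On this level scale the catalytic β subunit Atp5b (ENSMUSG00000025393, chr10:128083273-128090391) led with 5596 CPM per kb, followed by the α subunit Atp5a1 with 4110.2 and the ring subunit gene Atp5g3 with 4049. The highest of the other complexes were Ndufb9 of the complex I membrane arm with 3079, the complex III core protein Uqcrc1 (ENSMUSG00000025651, chr9:108936633-108949623) with 2522 and the iron-sulfur subunit Sdhb (ENSMUSG00000009863, chr4:140961203-140979193) with 2149 CPM per kb. The lowest of each were Ndufa4l2 with 12.7, Uqcrb with 388, Sdhc with 406 and Atp5g2 with 1.48 CPM per kb. An order per length depends on the transcript chosen for each gene. In P1 sham cardiomyocytes the same scale gave 2047 for Atp5b, 1164 for Atp5g3, 660 for Ndufb9, 365 for Uqcrc1 and 361 for Sdhb. Atp5l and Atp5g2 were near 1 CPM; genes with near-identical copies can lose reads in counting, so their levels are uncertain.

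The comparison of P56 with P1 sham asked how the members changed as the heart matured. In cardiomyocytes nearly the whole set was higher at P56 under the authors' scaling. The 66 members summed to 85324, 82043, 88109.5 and 76438 CPM in the 4 P56 sham libraries, against 30739, 20859.7, 24064 and 22034 CPM in the P1 sham libraries. The sums did not overlap, with means of 82978 ± 5016 and 24424 ± 4413 CPM (SD, n = 4 each) and a ratio of 3.40. By complex the ratio was 3.93 for complex I, 3.76 for complex III, 3.27 for complex II and 2.98 for ATP synthase. ATP synthase genes made up 38.8% to 44.9% of the member CPM in P56 sham cardiomyocytes and 47.1% to 48.8% in P1 sham cardiomyocytes, and complex I genes 33.3% to 38.2% and 29.5% to 31.6%.

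By gene, 64 of 66 were called higher, 1 lower and 1 was not called (limma over the 16 cardiomyocyte libraries, 15461 genes), where 33.3% of all genes tested were called higher and 37.0% lower. The median log2 difference was 1.82 for the members and -0.09 for all genes. For 63 of the 66 every P56 sham library lay above every P1 sham library, a count that was not made over all genes. All 4 genes of complex II, all 8 of complex III, 36 of 37 of complex I and 16 of 17 of ATP synthase were called higher, with medians of 1.70, 1.72, 1.90 and 1.78. The summed cardiomyocyte markers were also higher, 192994 to 223716 CPM in P56 sham and 46058 to 74705 CPM in P1 sham cardiomyocytes, with 14 of 14 called higher and a median of 1.91. Fibroblast markers were lower, 696 to 2107 CPM in P56 sham and 3460 to 7454 CPM in P1 sham cardiomyocytes. Endothelial markers were also lower, 1117 to 1810 CPM and 2562 to 4072 CPM. Leukocyte markers overlapped, 76 to 324 CPM and 190 to 502 CPM. The part of these transcripts in the result was not tested.

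In complex I the largest difference belonged to Ndufs7 (ENSMUSG00000020153, chr10:80249121-80256794), which binds an iron-sulfur cluster on the path to coenzyme Q. It had 671, 624, 1001 and 676 CPM in P56 sham cardiomyocytes, against 108, 95.2, 116 and 85.8 CPM in P1 sham cardiomyocytes. The groups stood far apart (log2 difference 2.85 ± 0.23, adjusted p = 3.77e-09). Ndufb10, a subunit of the membrane arm, followed with 1411, 1233, 1643 and 1076 CPM in P56 sham cardiomyocytes, against 237, 202, 215 and 183 CPM in P1 sham cardiomyocytes (log2 difference 2.67 ± 0.24, adjusted p = 1.81e-08). At the other end Ndufs1, the largest subunit of the electron input arm, had 1145, 1116, 762 and 1071 CPM in P56 sham cardiomyocytes, against 676, 475, 468 and 423 CPM in P1 sham cardiomyocytes (log2 difference 1.01 ± 0.21, adjusted p = 3.59e-04). Its P56 values were all above its P1 values, but its difference was smaller than that of most members, and it was -0.18 with libraries scaled to all their reads (adjusted p = 0.558). Ndufa4l2, a paralogue of Ndufa4 known as a hypoxia-induced gene, was the single member called lower, with 8.57, 14.0, 17.2 and 7.92 CPM in P56 sham cardiomyocytes, against 10.9, 17.7, 22.8 and 22.4 CPM in P1 sham cardiomyocytes (log2 difference -0.62 ± 0.26, adjusted p = 0.0423). Its groups overlapped, and the call was lost without the filter on low values, with the replicate block, without the libraries above 5% 18S and without any 1 of P1 MI replicate 1, P1 sham replicates 2, 3 and 4 and P56 sham replicates 1 and 4.

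Complex II couples the citric acid cycle to the chain, and its 4 genes changed by unequal amounts. Sdhb, which carries the iron-sulfur clusters, had 2571, 2148, 3037 and 2061 CPM in P56 sham cardiomyocytes, against 522, 358, 389.7 and 377 CPM in P1 sham cardiomyocytes (log2 difference 2.57 ± 0.25, adjusted p = 3.46e-08). Sdhc, a membrane anchor, had 1283, 1281, 1478 and 1111 CPM in P56 sham cardiomyocytes, against 345, 239.6, 289.6 and 254 CPM in P1 sham cardiomyocytes (log2 difference 2.20 ± 0.20, adjusted p = 2.18e-08). Sdha, the flavoprotein that oxidises succinate, had 1944, 1847, 1131 and 1765 CPM in P56 sham cardiomyocytes, against 834, 768, 683 and 580.3 CPM in P1 sham cardiomyocytes (log2 difference 1.20 ± 0.19, adjusted p = 2.03e-05). In CPM every P56 library lay above every P1 library for these 3 genes, but with libraries scaled to all reads the Sdha groups overlapped and its log2 difference was 0.02. The other membrane anchor, Sdhd, had 733, 897, 628 and 879 CPM in P56 sham cardiomyocytes, against 633, 393, 459.8 and 458 CPM in P1 sham cardiomyocytes (log2 difference 0.70 ± 0.19, adjusted p = 0.00324), and 1 P1 library lay among the P56 values. Sdhd was the single gene of the complex whose sign depended on the scaling: its log2 difference was -0.49 when libraries were scaled to all their reads and -0.14 when scaled to nuclear protein-coding reads.

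In complex III, Uqcrc1 had 4655, 3639, 5017 and 3368 CPM in P56 sham cardiomyocytes, against 619.8, 636, 659.7 and 499 CPM in P1 sham cardiomyocytes (log2 difference 2.78 ± 0.25, adjusted p = 2.18e-08), the largest difference of the 8 genes. Uqcrq had 1632, 1282, 1951 and 1067 CPM in P56 sham cardiomyocytes, against 409, 278, 299 and 289 CPM in P1 sham cardiomyocytes (log2 difference 2.20 ± 0.28, adjusted p = 1.20e-06), and the second core protein Uqcrc2 had 1920.4, 2101, 1603 and 2025 CPM in P56 sham cardiomyocytes, against 1076, 692, 792 and 769.9 CPM in P1 sham cardiomyocytes (log2 difference 1.21 ± 0.18, adjusted p = 1.09e-05). In CPM none of these 3 overlapped between the ages, but with libraries scaled to all reads the Uqcrc2 groups overlapped and its log2 difference was 0.03. The core proteins, which pair in the assembled complex, differed by unequal amounts. In ATP synthase the catalytic subunit Atp5b had 11014, 11478, 9346 and 11047 CPM in P56 sham cardiomyocytes, against 4728, 3574, 4047 and 3342 CPM in P1 sham cardiomyocytes (log2 difference 1.46 ± 0.22, adjusted p = 1.35e-05). Atp5a1, which alternates with it in the catalytic head, differed by 1.39 ± 0.23, below the median of the members; scaled to all reads the differences of Atp5b and Atp5a1 were 0.27 and 0.21, and neither was called. The largest difference was that of Atp5g1, with 79.1, 116, 113 and 23.1 CPM in P56 sham cardiomyocytes, against 16.8, 5.07, 5.61 and 7.64 CPM in P1 sham cardiomyocytes (log2 difference 3.08 ± 0.53, adjusted p = 4.49e-05); its P56 values were widely scattered but all above the P1 values. Atp5sl differed by 2.33 ± 0.20. Atp5l, which encodes the membrane subunit g, had 0.745, 1.13, 1.55 and 1.19 CPM in P56 sham cardiomyocytes, against 0.641, 0.592, 0.408 and 0.724 CPM in P1 sham cardiomyocytes (log2 difference 0.59 ± 0.21, adjusted p = 0.0202), and Atp5g2 was not called (log2 difference 0.25 ± 0.23, adjusted p = 0.321).

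**Figure D2:**
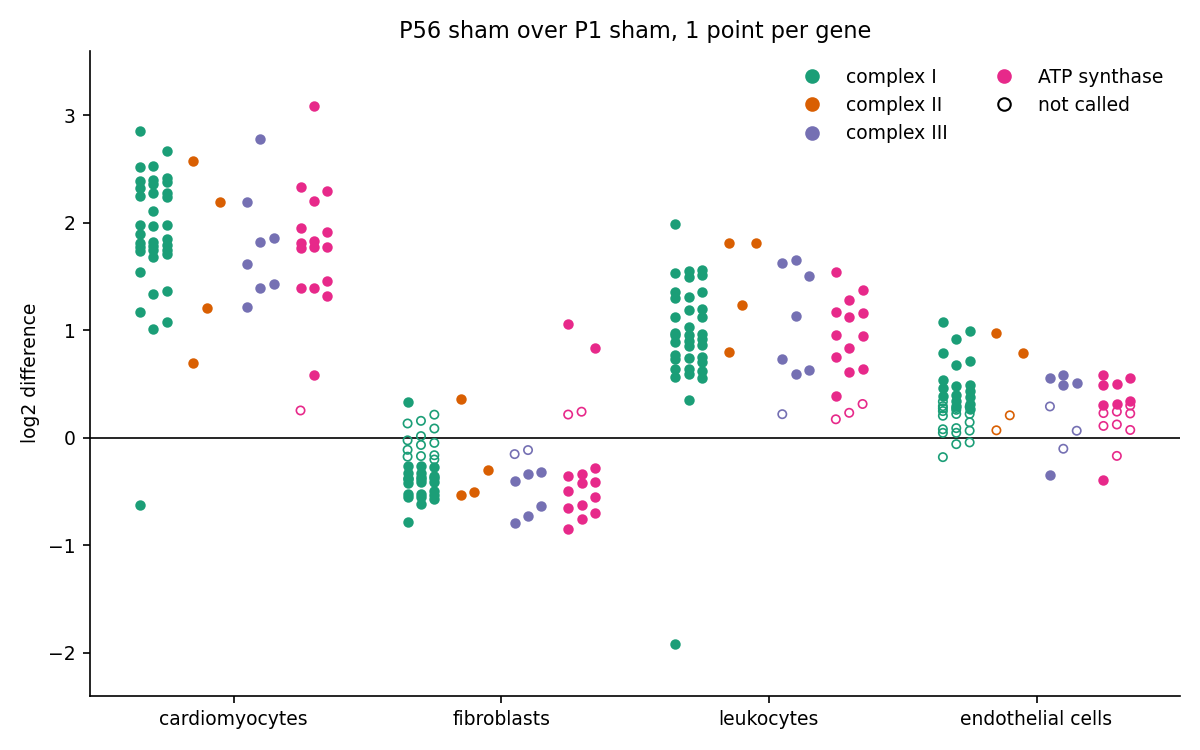
Each point is the log2 difference of a member, P56 sham over P1 sham, in the population named on the x axis, coloured by complex; open points were not called at an adjusted p under 0.05. The cardiomyocyte points lie mostly between 1 and 3, the leukocyte points mostly above 0, the endothelial points around 0.29 and most fibroblast points below 0.

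How far the cardiomyocyte values rose depended on what the libraries were scaled to. With libraries scaled to all their reads the median over all genes was -1.14 and that of the members 0.64. There 45 of 64 members tested were called higher, where 1533 of 15108 genes were. Of the 63 members tested there and called higher under the authors' scaling, 18 were not called, and Ndufa1, Ndufc2, Ndufs1 and Sdhd were below 0. For 38 of the 63 the ages did not overlap, a count that was not made over all genes. Scaled to nuclear protein-coding reads the medians were -0.88 and 0.99, and 56 of 66 members were called higher, where 2485 of 15847 genes were. The members stood above the median of all genes by 1.78 and 1.87 under these scalings and by 1.91 under the authors' scaling, and Ndufa4l2 was the member called lower under each. Mitochondrial ribosomal RNA took 29.9% ± 6.27 of the reads in P56 sham and 12.1% ± 3.67 in P1 sham cardiomyocytes (SD, n = 4 each); its part in the result was not tested.

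Genes that build or serve the complexes were described in the same way, and their counts also depended on the scaling. Under the authors' scaling, of 27 assembly factors 25 were called higher and 0 lower (median 1.16), led by Ecsit (2.63 ± 0.20), which takes part in complex I assembly, Bcs1l (2.25 ± 0.21), which inserts the Rieske protein into complex III, and Uqcc2 (2.17 ± 0.32), another complex III factor. Scaled to all reads 4 assembly factors were called higher and 3 lower (median 0.01), where 1533 and 10317 of 15108 genes were. Scaled to nuclear protein-coding reads 13 were called higher and 2 lower (median 0.34), where 2485 and 9814 of 15847 genes were. Of 17 electron carriers and partners 16 were called higher and 0 lower (median 1.75), among them the coenzyme Q synthesis genes Coq9 (3.07 ± 0.20) and Coq4 (2.24 ± 0.19) and the electron transfer flavoprotein Etfb (2.33 ± 0.24). Scaled to all reads 10 of these were called higher and 1 lower (median 0.57). Of 16 regulators tested 9 were called higher and 3 lower, where 33.3% and 37.0% of all genes were called in those directions. Scaled to all reads 4 of 17 were called higher and 8 lower, where 1533 and 10317 of 15108 genes were. Esrra, a nuclear receptor that activates respiratory genes, averaged 329 ± 30.5 CPM in P56 sham and 60.0 ± 14.8 CPM in P1 sham cardiomyocytes (SD, n = 4 each; log2 difference 2.48 ± 0.25). Esrrg (1.27 ± 0.19), Esrrb (2.63 ± 0.22) and Ppara (2.57 ± 0.23), a receptor for fatty acid oxidation genes, were higher, though Esrrg was 0.10 and not called with libraries scaled to all reads. The coactivator Ppargc1a was higher by 0.94 ± 0.28 (adjusted p = 0.00608), but its difference was -0.24 with libraries scaled to all reads. Nrf1 (-0.76 ± 0.14) and the GABP subunits Gabpb1 (-1.44 ± 0.18) and Gabpb2 (-1.29 ± 0.24) were lower.

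In leukocytes the members were also higher at P56 in sham hearts. They summed to 20904, 10870.4, 8832 and 12556 CPM in the P56 sham libraries, against 4986, 5269.6, 5735 and 5146 CPM in the P1 sham libraries, a ratio of means of 2.52. By gene 60 of 65 tested were called higher and 1 lower, with 32.5% and 34.5% of all genes called in those directions, and a median of 0.96 for the members and -0.01 for all genes. The cardiomyocyte markers in the same libraries summed to 210360, 81996, 76959 and 103985 CPM in P56 sham, against 20647, 19299.7, 25228 and 25407 CPM in P1 sham leukocytes, with 13 of 14 called higher (median 1.58). The P56 sham library with the most member RNA was also the one with the most marker RNA. The part of these transcripts in the result was not tested.

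The order of the members in leukocytes differed from that in cardiomyocytes. Ndufs1, among the smallest differences there, led here with 931, 377, 296 and 443 CPM in P56 sham leukocytes, against 117, 118, 119 and 110.3 CPM in P1 sham leukocytes (log2 difference 1.99 ± 0.24, adjusted p = 2.86e-06). Sdhb had 510.4, 249, 209 and 314 CPM in P56 sham leukocytes, against 80.5, 87.2, 91.5 and 83.3 CPM in P1 sham leukocytes (log2 difference 1.82 ± 0.19, adjusted p = 6.13e-07), and Sdha had 1195, 533, 492 and 657 CPM in P56 sham leukocytes, against 185, 177, 200.2 and 204 CPM in P1 sham leukocytes (log2 difference 1.81 ± 0.21, adjusted p = 1.33e-06). In each the P56 libraries lay above the P1 libraries, and the same P56 library was highest. Uqcrc2 (1.65 ± 0.23), Uqcrc1 (1.63 ± 0.20) and Atp5a1 (1.54 ± 0.21) followed, whereas Uqcrq (log2 difference 0.22 ± 0.16, adjusted p = 0.236) and Atp5e, the small ε subunit of the ATP synthase head (log2 difference 0.17 ± 0.11, adjusted p = 0.18), were not called. Ndufa4l2 was the member called lower, with 1.62, 3.54, 3.10 and 2.63 CPM in P56 sham leukocytes, against 8.71, 14.2, 11.9 and 11.1 CPM in P1 sham leukocytes (log2 difference -1.91 ± 0.25, adjusted p = 4.44e-06), and its groups did not overlap. Endothelial markers summed to 431 to 634 CPM in P56 sham and 3991 to 4736 CPM in P1 sham leukocytes. Leukocyte markers went the other way, with 6888 to 12624 CPM and 4062 to 5300 CPM. The part of these transcripts in the Ndufa4l2 call was not tested.

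Endothelial cells showed a smaller difference with age. The member sums averaged 3799.6 ± 464 CPM in P56 sham and 2938 ± 195 CPM in P1 sham endothelial cells (SD, n = 4 each), and 31 of 65 members were called higher and 2 lower, against 33.6% and 29.3% of all genes. The share of members called higher exceeded that of all genes by less than in cardiomyocytes or leukocytes. The number called lower was 0 without replicate 1 of P1 sham endothelial cells and 1 without any of P1 MI replicates 1, 3 and 4, P1 sham replicates 2, 3 and 4, P56 MI replicate 3 and P56 sham replicates 1, 3 and 4. Ndufs7 had 38.4, 34.0, 36.3 and 32.7 CPM in P56 sham endothelial cells, against 18.1, 17.1, 18.2 and 16.6 CPM in P1 sham endothelial cells (log2 difference 0.99 ± 0.08, adjusted p = 3.63e-08). Sdha had 208, 187, 166 and 157 CPM in P56 sham endothelial cells, against 98.2, 82.0, 90.6 and 92.2 CPM in P1 sham endothelial cells (log2 difference 0.97 ± 0.10, adjusted p = 1.71e-07), and Ndufa4l2 had 14.8, 25.3, 20.7 and 22.4 CPM in P56 sham endothelial cells, against 10.3, 7.56, 9.02 and 11.2 CPM in P1 sham endothelial cells (log2 difference 1.08 ± 0.17, adjusted p = 4.04e-05). In all 3 the ages did not overlap, and Ndufa4l2 was higher at P56 here although it was lower at P56 in leukocytes. Atp5e had 36.7, 46.4, 42.2 and 35.7 CPM in P56 sham endothelial cells, against 60.4, 49.5, 49.7 and 51.6 CPM in P1 sham endothelial cells and was called lower (log2 difference -0.39 ± 0.13, adjusted p = 0.0146), as was Uqcrq (log2 difference -0.34 ± 0.15, adjusted p = 0.0488). Cardiomyocyte markers summed to 9419.9 to 21346 CPM in P56 sham and 693 to 2528 CPM in P1 sham endothelial cells, and 14 of 14 were called higher; their part in the result was not tested.

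Fibroblasts went the other way. Their member sums were 2727, 2566, 2648 and 2558 CPM in P56 sham, against 3629, 3267, 3427 and 3235 CPM in P1 sham fibroblasts, with no overlap and a ratio of means of 0.774. Of 65 members 44 were called lower and 4 higher, where 32.2% of all genes were called lower and 34.8% higher, and the median was -0.36 for the members and 0.03 for all genes. With libraries scaled to all reads 13 of 65 members and 3294 of 15949 genes were called lower, so the members' share did not exceed the background. The medians were then -0.20 for the members and 0.19 for all genes. Cardiomyocyte markers moved opposite to the members, with sums of 2895 to 6100.2 CPM in P56 sham and 294 to 529.5 CPM in P1 sham fibroblasts and 13 of 14 called higher. The decrease was largest for Atp5o, the stalk subunit OSCP, with 33.5, 31.5, 34.8 and 30.5 CPM in P56 sham fibroblasts, against 65.7, 53.4, 60.4 and 57.9 CPM in P1 sham fibroblasts (log2 difference -0.85 ± 0.11, adjusted p = 2.32e-06). Ndufa2, a small accessory subunit of complex I, had 23.1, 25.9, 25.6 and 21.5 CPM in P56 sham fibroblasts, against 43.8, 39.8, 39.9 and 43.7 CPM in P1 sham fibroblasts (log2 difference -0.79 ± 0.08, adjusted p = 3.61e-07), and Uqcrq had 22.0, 17.1, 22.2 and 18.5 CPM in P56 sham fibroblasts, against 33.6, 33.9, 34.9 and 36.5 CPM in P1 sham fibroblasts (log2 difference -0.79 ± 0.11, adjusted p = 9.94e-06). In each, all P56 libraries lay below all P1 libraries.

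Complex II did not move as a unit in fibroblasts. Sdhd (-0.53 ± 0.09), Sdhc (-0.50 ± 0.10) and Sdhb (-0.30 ± 0.10) were lower at P56, while Sdha had 142, 132, 133 and 125 CPM in P56 sham fibroblasts, against 106, 93.4, 97.7 and 116 CPM in P1 sham fibroblasts and was higher (log2 difference 0.36 ± 0.09, adjusted p = 0.00136). The other members called higher were Ndufs7 (0.33 ± 0.09), Atp5g1 (0.83 ± 0.23) and Atp5g2 (1.06 ± 0.17), the last at 1.68, 1.43, 1.38 and 1.58 CPM in P56 sham fibroblasts, against 0.816, 0.326, 0.392 and 0.409 CPM in P1 sham fibroblasts. Among the partner genes Atpif1, the inhibitor of ATP synthase (-1.72 ± 0.12), and the adenine nucleotide carrier Slc25a5 (-1.62 ± 0.16) were lower at P56, and Ppargc1a (1.71 ± 0.27) was higher.

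Whether the change with age was larger in cardiomyocytes was tested as a difference of changes over the 32 sham libraries. For 47 of 66 members it was larger than in each of the other 3 populations, where 17.9% of all genes (3162 of 17618) passed the same test. The count depends on the scaling, with 24 members when libraries were scaled to nuclear protein-coding reads and 6 when scaled to all reads. The 17.9% belongs to the authors' scaling, and no share of all genes is set beside the other counts. The largest differences belonged to Atp5e (log2 2.03 to 2.83 over the 3 populations), Uqcrq (1.98 to 2.99) and Atp5d (1.90 to 3.05), the δ subunit of the central stalk. The 19 that did not pass included abundant catalytic and core genes: Atp5b, Atp5a1, Uqcrc2, Uqcrfs1 (the Rieske iron-sulfur protein), Ndufv1 (which binds NADH), Ndufs1, Sdha and Sdhd. For Sdha and Ndufs1 the change was larger in leukocytes, with a log2 difference of changes of -0.61 ± 0.26 (adjusted p = 0.045) and -0.98 ± 0.29 (adjusted p = 0.00516).

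After MI at P1 few members were called different from sham. In cardiomyocytes 0 of 66 were called, against 0.285% of all genes called higher and 0.0582% lower, and 1 member had an unadjusted p under 0.05 in limma. The sums averaged 22199 ± 2798 CPM in P1 MI and 24424 ± 4413 CPM in P1 sham cardiomyocytes (SD, n = 4 each). In fibroblasts 0 of 65 were called, against 1.99% of all genes higher and 0.375% lower, with 6 members at an unadjusted p under 0.05, and in endothelial cells 0 of 65, against 0.0891% and 0.127%, with 4 members at an unadjusted p under 0.05. These comparisons called few genes of any kind. In leukocytes 5 of 65 members were called lower and 0 higher, against 22.6% of all genes in each direction, so the members' share did not exceed the background.

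The leukocyte gene with the largest P1 difference was Ndufa4l2, with 4.19, 3.12, 3.65 and 2.40 CPM in P1 MI leukocytes, against 8.71, 14.2, 11.9 and 11.1 CPM in P1 sham leukocytes (log2 difference -1.64 ± 0.25, adjusted p = 5.87e-05). Atp5j, the coupling factor 6 of the stalk, had 26.9, 29.1, 28.0 and 27.1 CPM in P1 MI leukocytes, against 35.2, 42.9, 47.5 and 46.3 CPM in P1 sham leukocytes (log2 difference -0.61 ± 0.16, adjusted p = 0.00598). The first did not overlap between the groups, and neither did the second. Ndufv1 (-0.54 ± 0.19), Ndufa5 (-0.53 ± 0.21) and Uqcr11 (-0.42 ± 0.14) were the others. The count was 10 without replicate 1 and 8 without replicate 3 of P56 sham, 2 without replicate 4 of P1 MI or replicate 3 of P1 sham, and 3 without replicates 1 or 3 of P1 MI or 2 or 4 of P1 sham leukocytes. Cardiomyocyte markers summed to 5779.6 to 15914 CPM in P1 MI and 19299.7 to 25407 CPM in P1 sham leukocytes, and 13 of 14 were called lower. Leukocyte markers summed to 11914 to 14071 CPM in P1 MI and 4062 to 5300 CPM in P1 sham leukocytes. Endothelial markers fell, with 490 to 936 CPM in P1 MI and 3991 to 4736 CPM in P1 sham leukocytes. The 9 markers of mural cells (pericytes and smooth muscle) summed to 273 to 543 CPM and 1521 to 1906 CPM in the same groups. Fibroblast markers overlapped, with 4859 to 8269 CPM and 3905 to 6316 CPM. The part of these transcripts in the result was not tested.

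After MI at P56 the populations differed from each other. In cardiomyocytes the member sums of the groups overlapped: they were 87979, 93763, 51327 and 83522 CPM in P56 MI, against 85324, 82043, 88109.5 and 76438 CPM in P56 sham cardiomyocytes, and replicate 3 of the MI group lay far below the rest. Of 66 members 0 were called higher and 1 lower, against 8.66% and 1.03% of all genes, and 7 members had an unadjusted p under 0.05. The median was -0.15 for the members and 0.08 for all genes. The called member was Ndufa5, an accessory subunit of the complex I peripheral arm, with 166, 349.9, 379 and 217 CPM in P56 MI cardiomyocytes, against 499.7, 527, 400 and 433 CPM in P56 sham cardiomyocytes (log2 difference -0.81 ± 0.24, adjusted p = 0.0368). Its groups did not overlap. The count was 4 without replicate 3 of P56 MI and 2 without replicate 2 of P56 MI or of P1 sham. It was 0 with the replicate block, with edgeR on recovered reads, with libraries scaled to all reads or to nuclear protein-coding reads, without the libraries above 5% 18S, and without replicates 1 or 4 of P56 MI or 1 or 2 of P56 sham cardiomyocytes; without replicate 4 of P56 sham Atp5g1 was called in place of Ndufa5. Sdhb, of complex II, was not called; it had 2935, 2741, 1196 and 2492 CPM in P56 MI cardiomyocytes, against 2571, 2148, 3037 and 2061 CPM in P56 sham cardiomyocytes (log2 difference -0.13 ± 0.25, adjusted p = 0.796).

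In leukocytes the members were lower after MI at P56. Their sums were 5468, 4545, 4851 and 4126 CPM in P56 MI, against 20904, 10870.4, 8832 and 12556 CPM in P56 sham leukocytes, with no overlap and a ratio of means of 0.357. Of 65 members 61 were called lower and 0 higher, where 28.8% of all genes were called lower and 30.7% higher, and the medians were -1.01 and 0.02. All 4 genes of complex II and all 8 of complex III were called lower, 35 of 37 of complex I and 14 of 16 tested of ATP synthase, with medians of -1.35, -1.09, -0.92 and -1.12. The cardiomyocyte markers in the same libraries summed to 19693, 11484, 12575 and 5409 CPM in P56 MI, against 210360, 81996, 76959 and 103985 CPM in P56 sham leukocytes, with 14 of 14 called lower and a median of -3.13. Leukocyte markers summed to 12247 to 15667 CPM in P56 MI and 6888 to 12624 CPM in P56 sham leukocytes. The part of these transcripts in the result was not tested.

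Ndufs1 fell most, with 132, 98.1, 113 and 83.2 CPM in P56 MI leukocytes, against 931, 377, 296 and 443 CPM in P56 sham leukocytes (log2 difference -2.14 ± 0.24, adjusted p = 3.05e-06). Sdha had 259.6, 192, 176 and 179.6 CPM in P56 MI leukocytes, against 1195, 533, 492 and 657 CPM in P56 sham leukocytes (log2 difference -1.75 ± 0.21, adjusted p = 4.10e-06), and Uqcrc2 had 152, 106, 125 and 97.2 CPM in P56 MI leukocytes, against 859, 379, 296 and 480.1 CPM in P56 sham leukocytes (log2 difference -1.97 ± 0.23, adjusted p = 3.52e-06). In these 3 every MI library lay below every sham library. The same P56 sham libraries enter the comparison with age and the difference of changes between ages in leukocytes. Values of these comparisons are therefore given side by side only. Ndufv1 (-1.94 ± 0.19), Uqcrfs1 (-1.83 ± 0.22), Atp5g1 (-1.78 ± 0.34), Atp5a1 (-1.66 ± 0.21) and Sdhb (-1.53 ± 0.19) were also lower. Of the assembly factors 20 were called lower and 1 higher, and of the partner genes 15 lower and 1 higher. Over all genes 28.8% were called lower and 30.7% higher. Scaled to all reads 9 assembly factors were called lower and 2 higher, where 2769 and 5658 of 16523 genes were. The regulators Esrrg (-3.09 ± 0.39), Ppara (-3.07 ± 0.32) and Ppargc1a (-2.62 ± 0.36) and the heart form of the adenine nucleotide carrier Slc25a4 (-2.31 ± 0.23) fell, while the more widely expressed form Slc25a5 (0.52 ± 0.11) and Atpif1 (0.42 ± 0.10) rose.

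In fibroblasts the members were higher after MI at P56. Their sums were 3448, 2709, 3364 and 3243 CPM in P56 MI, against 2727, 2566, 2648 and 2558 CPM in P56 sham fibroblasts; the lowest MI value, that of replicate 2, lay just under the highest sham value. Of 65 members 33 were called higher and 2 lower, where 24.8% of all genes were called higher and 25.2% lower, and the medians were 0.25 and -0.03. The number called higher was 24 to 40 with single libraries left out and 15 of 65 with libraries scaled to all reads. Under that scaling 3057 of 15949 genes were called higher, a share near that of the members. The medians were then 0.28 for the members and -0.01 for all genes. Cardiomyocyte markers moved opposite to the members, with sums of 252 to 1085 CPM in P56 MI and 2895 to 6100.2 CPM in P56 sham fibroblasts and 14 of 14 called lower.

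Uqcrq had 37.0, 26.1, 34.0 and 35.0 CPM in P56 MI fibroblasts, against 22.0, 17.1, 22.2 and 18.5 CPM in P56 sham fibroblasts (log2 difference 0.71 ± 0.11, adjusted p = 8.31e-05), Atp5e had 68.3, 54.1, 61.9 and 56.8 CPM in P56 MI fibroblasts, against 34.5, 38.0, 42.8 and 36.7 CPM in P56 sham fibroblasts (log2 difference 0.66 ± 0.12, adjusted p = 3.17e-04) and Ndufa4 had 53.3, 38.0, 47.7 and 47.3 CPM in P56 MI fibroblasts, against 28.6, 30.4, 30.5 and 30.8 CPM in P56 sham fibroblasts (log2 difference 0.61 ± 0.09, adjusted p = 4.61e-05). None of the 3 overlapped between the groups, and Uqcrq and Ndufa4 were among the genes lower at P56 than at P1 in sham fibroblasts. Since both comparisons use the P56 sham libraries, the values are given side by side only. Sdhd (0.36 ± 0.09) and Sdhc (0.31 ± 0.10) were higher and Sdha was not called (log2 difference -0.06 ± 0.09, adjusted p = 0.593). The members called lower were Atp5g1, with 1.55, 1.53, 1.05 and 2.16 CPM in P56 MI fibroblasts, against 3.68, 3.00, 2.76 and 2.40 CPM in P56 sham fibroblasts (log2 difference -0.75 ± 0.23, adjusted p = 0.0129), and Ndufs7 (log2 difference -0.23 ± 0.09, adjusted p = 0.0421); the Ndufs7 call was lost with the replicate block, with libraries scaled to all reads and without any 1 of P1 sham replicates 2 and 3, P56 MI replicates 1, 3 and 4 and the 4 P56 sham replicates. Among partner genes Slc25a5 (1.68 ± 0.16) and Atpif1 (0.85 ± 0.12) were higher and Ppargc1a (-1.83 ± 0.27) was lower.

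In endothelial cells 13 of 65 members were called lower and 0 higher after MI at P56, where 7.88% of all genes were called lower and 12.5% higher; the medians were -0.15 and 0.02. Ndufs1 had 80.3, 71.9, 78.6 and 65.6 CPM in P56 MI endothelial cells, against 141, 116, 102 and 88.6 CPM in P56 sham endothelial cells (log2 difference -0.57 ± 0.11, adjusted p = 0.00227), and the groups did not overlap. Sdhb had 68.2, 51.1, 61.6 and 50.7 CPM in P56 MI endothelial cells, against 95.4, 76.1, 83.4 and 69.8 CPM in P56 sham endothelial cells (log2 difference -0.49 ± 0.12, adjusted p = 0.00979) and Ndufa4l2 had 15.9, 10.5, 11.3 and 11.8 CPM in P56 MI endothelial cells, against 14.8, 25.3, 20.7 and 22.4 CPM in P56 sham endothelial cells (log2 difference -0.72 ± 0.17, adjusted p = 0.00775). The groups of Sdhb lay close without overlap and those of Ndufa4l2 overlapped. The count was 6 without replicate 4 of P56 MI and 7 without replicate 1 of P56 sham endothelial cells. Cardiomyocyte markers summed to 4004 to 8811 CPM in P56 MI and 9419.9 to 21346 CPM in P56 sham endothelial cells, with 8 of 14 called lower; their part in the result was not tested.

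**Figure D3:**
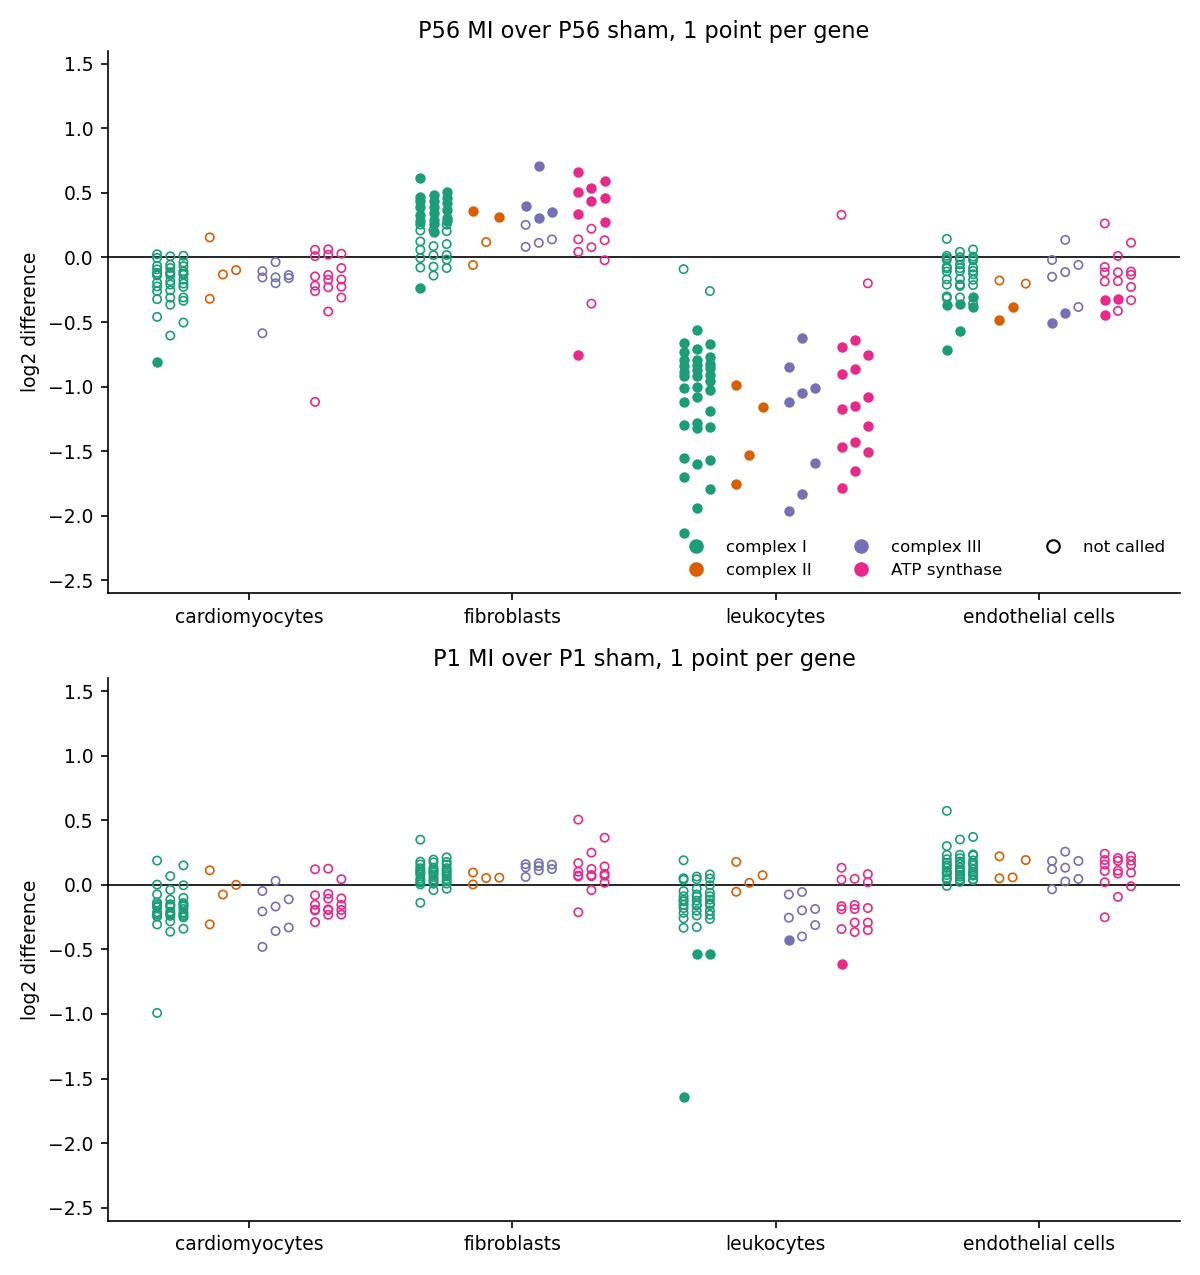
Each point is the log2 difference of a member after MI, P56 MI over P56 sham above and P1 MI over P1 sham below, by population and coloured by complex; open points were not called. At P56 the leukocyte points lie mostly around -1.01, the fibroblast points mostly above 0 and the cardiomyocyte points around -0.15; at P1 nearly all points are open.

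The change after MI was then compared between the ages, as the change at P56 minus that at P1. In cardiomyocytes 0 of 66 members were called, against 1.69% of all genes higher and 0.0582% lower, with 2 members at an unadjusted p under 0.05 in limma. In leukocytes 56 of 65 were called lower and 1 higher, where 21.5% and 23.7% of all genes were called in those directions, and the median was -0.90. Sdhb (log2 difference -1.71 ± 0.27, adjusted p = 1.69e-04), Ndufs1 (-1.81 ± 0.35) and Sdha (-1.70 ± 0.29) led. The member called higher was Ndufa4l2 (log2 difference 1.55 ± 0.35, adjusted p = 0.00207), which fell after MI at P1 and had 2.95, 3.83, 1.75 and 1.73 CPM in P56 MI leukocytes, against 1.62, 3.54, 3.10 and 2.63 CPM in P56 sham leukocytes. Scaled to all reads, 37 of 65 leukocyte members were called lower, where 1879 of 16523 genes were. The cardiomyocyte markers moved with the members here, 12 of 14 called lower with a median of -1.66. Endothelial markers summed to 174 to 261 CPM in P56 MI and 431 to 634 CPM in P56 sham leukocytes. At P1 they summed to 490 to 936 CPM in MI and 3991 to 4736 CPM in sham leukocytes. The part of these transcripts in the result was not tested.

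In fibroblasts 6 members were called higher and 1 lower in the difference of changes, against 16.2% and 15.5% of all genes, so the members' shares did not exceed the background. The 6 were Uqcrq (log2 difference 0.57 ± 0.16, adjusted p = 0.013), Ndufa4 (0.51 ± 0.13), Atp5e (0.49 ± 0.17), Ndufa1 (0.46 ± 0.15), Ndufa2 (0.45 ± 0.12) and Atp5d (0.44 ± 0.12). The lower one was Ndufa6 (log2 difference -0.32 ± 0.11, adjusted p = 0.043), a call lost without any 1 of P1 MI replicates 1 and 3, P1 sham replicate 3, P56 MI replicates 1 and 4 and P56 sham replicates 1, 2 and 3. The count called higher was 16 without replicate 2 of P56 MI and 11 without replicate 4 of P1 sham fibroblasts, 14 under median-of-ratios scaling and 0 with libraries scaled to all reads. In endothelial cells 5 were called lower and 0 higher, against 2.02% and 3.39% of all genes: Ndufa4l2 (log2 difference -1.29 ± 0.24, adjusted p = 0.00845), Sdhb (-0.71 ± 0.17), Ndufs1 (-0.60 ± 0.16), Sdha (-0.57 ± 0.13) and Ndufs7 (-0.54 ± 0.12). That count was 10 with the replicate block, 2 without replicate 2 and 3 without replicate 3 of P1 sham, 3 without replicate 4 of P56 MI or replicate 3 of P56 sham, and 12 without replicate 1 of P56 MI or replicate 4 of P56 sham endothelial cells.

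The near-duplicate genes divided the RNA of their families unequally. Atp5g3 gave 93.4% to 98.9% of the summed CPM of the subunit c genes as group means in all 16 groups. Its CPM in cardiomyocytes was 3903, 3438, 1887 and 3396 in P56 MI, 2870.2, 2817, 3387 and 2635 in P56 sham, 673, 664, 842 and 742 in P1 MI and 1064, 705, 892 and 706 in P1 sham hearts. Every P56 library was above every P1 library. The share of Atp5g1, whose promoter held the CCAAT matches shown above, was 2.68% ± 1.31 in P56 sham and 0.991% ± 0.422 in P1 sham cardiomyocytes (SD, n = 4 each). In fibroblasts it was 1.80% ± 0.561 in P56 MI, 4.39% ± 0.652 in P56 sham and 1.40% ± 0.369 in P1 sham. Shares of Atp5g1 and Atp5g2 are subject to the counting of near-identical copies.

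Ndufa4 (ENSMUSG00000029632, chr6:11900292-11907497) and Ndufa4l2 (ENSMUSG00000040280, chr10:127514939-127517152) showed the widest change of balance between populations. In cardiomyocytes Ndufa4 had 1584, 1515, 1935 and 1362 CPM in P56 sham cardiomyocytes, against 738, 345, 465 and 471 CPM in P1 sham cardiomyocytes, and Ndufa4l2 made up 0.727% ± 0.196 of the pair in P56 sham and 3.88% ± 1.63 in P1 sham. In fibroblasts Ndufa4l2 had 50.4, 48.9, 42.5 and 60.3 CPM in P56 MI, 55.4, 38.6, 35.0 and 41.2 CPM in P56 sham, 36.9, 35.6, 40.1 and 40.8 CPM in P1 MI and 47.5, 34.0, 32.1 and 41.1 CPM in P1 sham. That was 52.0% ± 4.83, 58.1% ± 5.44, 44.6% ± 2.50 and 46.3% ± 3.38 of the pair. In endothelial cells the shares in the same order were 19.4% ± 1.62, 26.5% ± 5.47, 20.6% ± 3.27 and 16.1% ± 2.34, and in leukocytes 3.54% ± 1.36, 1.70% ± 0.897, 5.19% ± 1.15 and 14.0% ± 2.09. Fibroblasts were the population with the highest share in every condition, and cardiomyocytes had the lowest share in every condition. Mural cell markers summed to 2028 to 5482 CPM in fibroblast libraries and 1049 to 4311 CPM in endothelial libraries. They summed to 1315 to 3019 CPM in cardiomyocyte libraries and 113 to 1906 CPM in leukocyte libraries. The part of mural cell RNA in these shares was not tested.

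**Figure D4:**
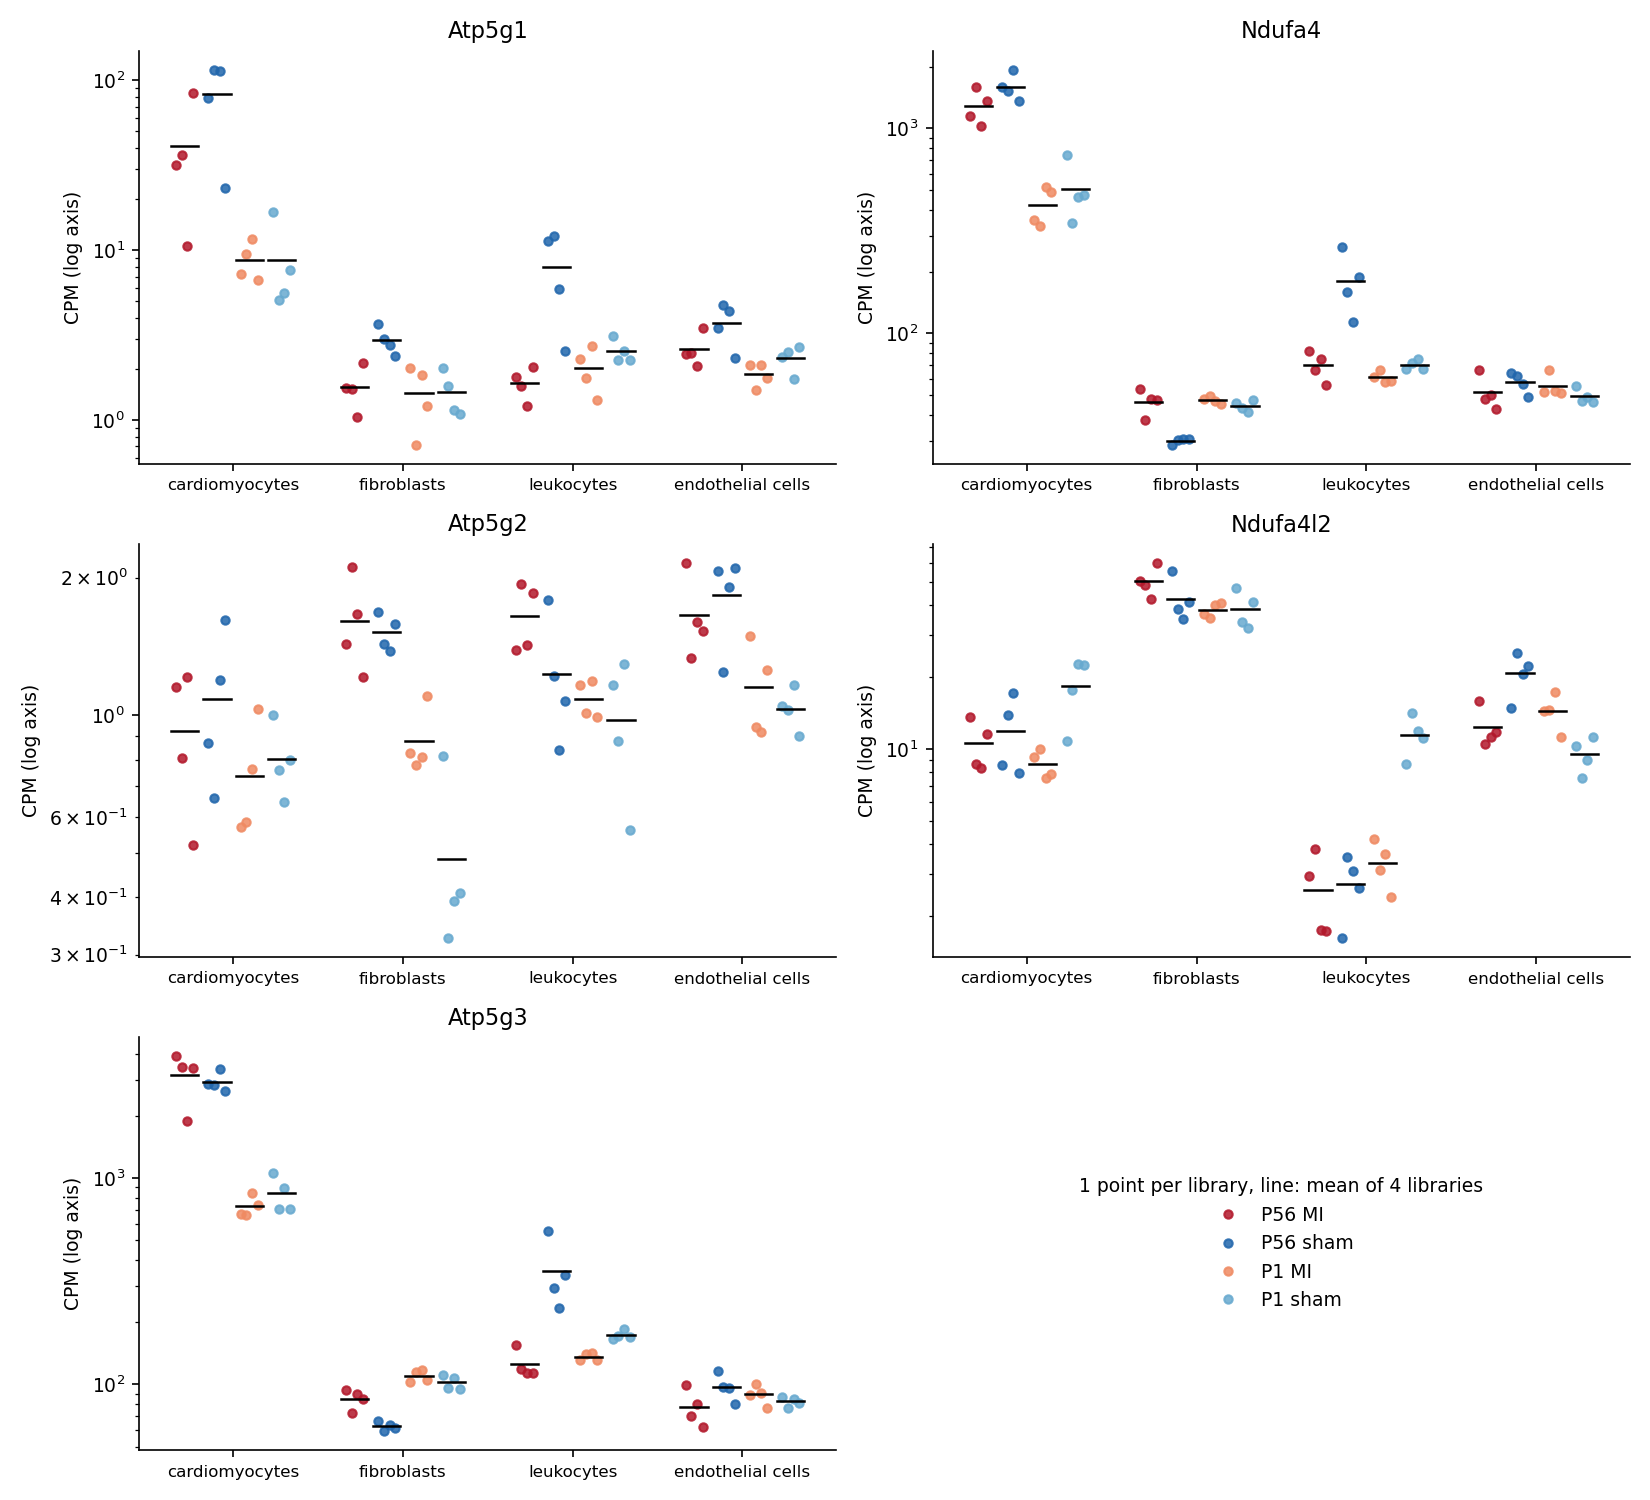
The CPM of Atp5g1, Ndufa4, Atp5g2, Ndufa4l2 and Atp5g3 is plotted for each of the 64 libraries on log axes, by population, with P56 MI, P56 sham, P1 MI and P1 sham from left to right. Atp5g3 stands far above Atp5g1 and Atp5g2 in every population, and Ndufa4l2 reaches the level of Ndufa4 in fibroblasts only.

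The size of the change also went with transcript length in some populations, which is given here as a description across genes, with no test, since genes are not independent replicates. Among the members the Spearman correlation of principal transcript length with the log2 difference was 0.08 for age in cardiomyocytes, 0.54 for age in leukocytes, 0.40 for age in fibroblasts, -0.49 for MI at P56 in leukocytes and -0.57 for MI at P56 in endothelial cells. Over the other protein-coding genes the same values were -0.17, 0.02, 0.08, -0.17 and -0.11. In leukocytes the 31 members of at least 1000 bases had a median difference with age of 1.19 and the 34 shorter ones 0.74, and after MI at P56 medians of -1.30 and -0.90. In cardiomyocytes the medians with age were 1.86 for 31 longer and 1.79 for 35 shorter members.

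**Figure D5:**
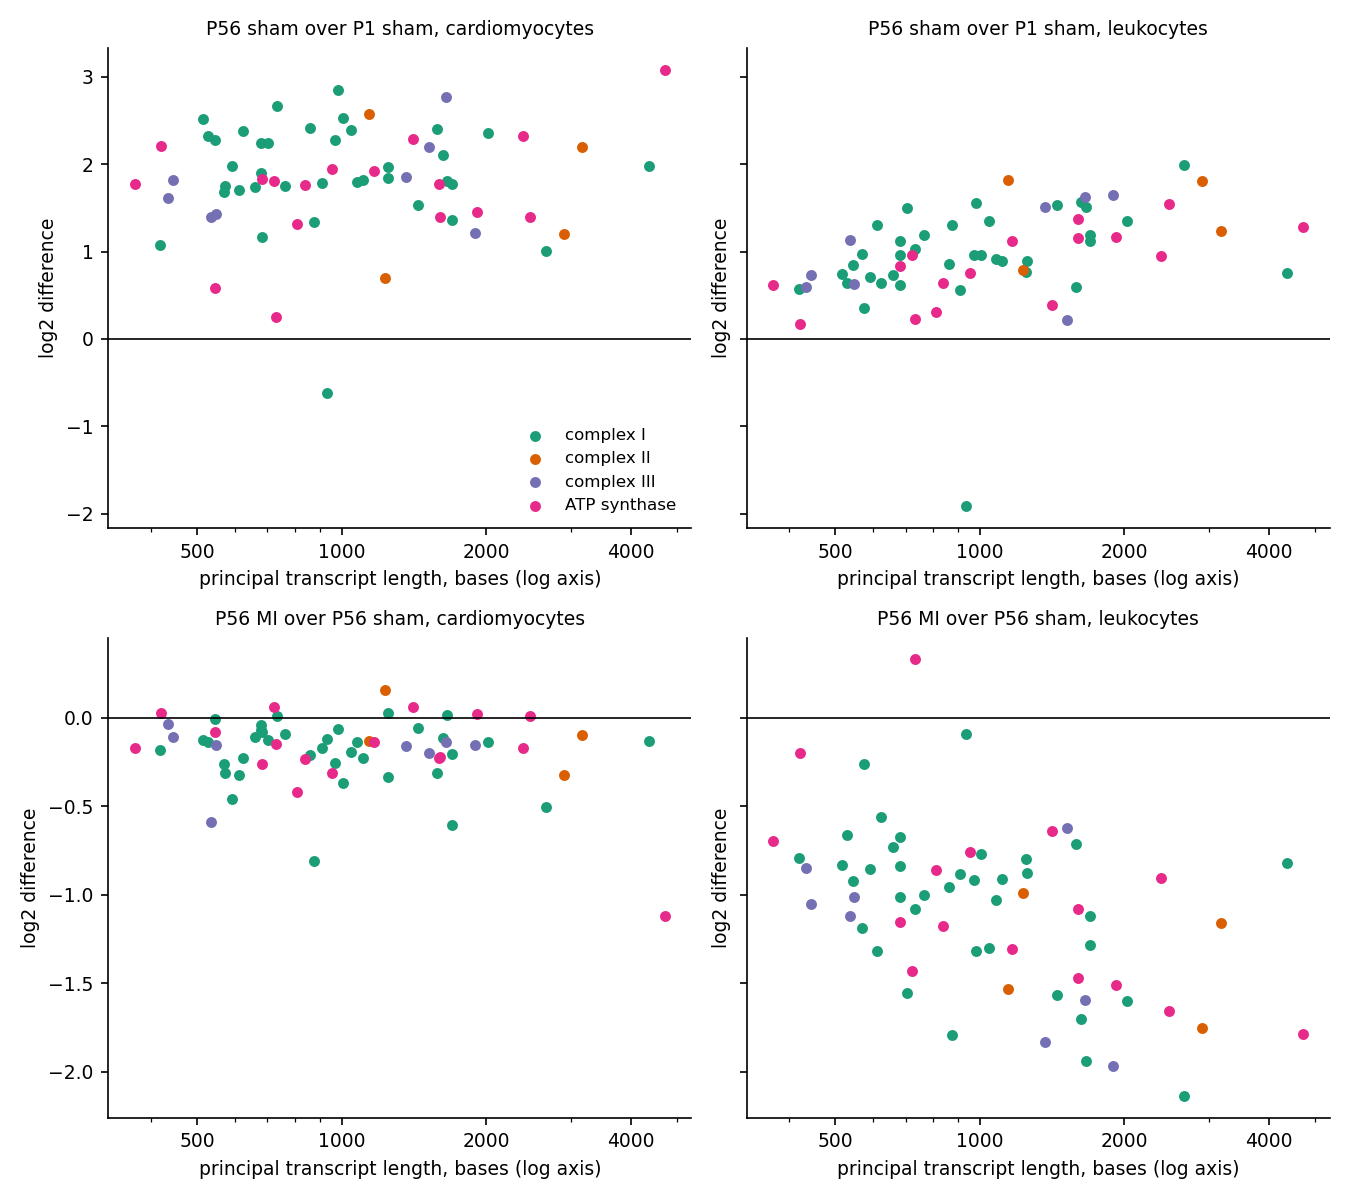
The log2 difference of each member is plotted against its principal transcript length in bases (log axis), for cardiomyocytes on the left and leukocytes on the right, with P56 sham over P1 sham above and P56 MI over P56 sham below. The leukocyte points climb with length for age and descend with length for MI, and the cardiomyocyte points do neither.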

How the data were processed

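Total RNA of 64 libraries was depleted with Ribo-Zero Gold, made into stranded TruSeq libraries and read as single 50-base ends, per the labels' protocols. Trimmomatic, STAR, HTSeq and edgeR are named, without versions, in the submitters' processing notes. No source used here says whether reads were counted by strand. The authors' deposited signal per gene is named CPM, and its column sums differ between libraries. Whole reads were recovered for 100% of the deposited values within 0.01 (9.59 to 27.5 M reads per library). Between the 96 pairs of replicates the chi-square of the reads was 7.84 to 725 per gene, and 0 were identical. The row that names no gene was left out of the tests.

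Groups came from the labels. The test was limma 3.58.1 (R 4.3.3, with a mean-variance trend) on log2(CPM + 0.5), over the 16 libraries of a population or the 32 sham libraries. Genes reaching 1 CPM in 4 or more libraries entered, with Benjamini-Hochberg adjustment over all of them and a threshold of 0.05. Fold changes on this scale understate the change of low genes, and ± after a log2 difference is its standard error. Alternatives were a pseudocount of 1, no filter, median-of-ratios scaling, the replicate number as a block, edgeR 4.0.16 on recovered reads and leaving out each library. Scaling to all reads, scaling to nuclear protein-coding reads and leaving out the 7 libraries over 5% 18S were added after seeing the data. The limma and edgeR scripts were tested on simulated counts. For P56 MI over P56 sham in cardiomyocytes limma recovered 34% and edgeR 32% of simulated 2-fold changes. Both recovered 100% of 4-fold ones, and 8.22% of limma calls and 4.35% of edgeR calls were false. In that setting most 2-fold changes were missed, so a low count of calls does not show that nothing changed. Replicate numbers did not pair groups of a population (0 of 24 pairs had every same-numbered correlation over 0.1).

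The members and lists were chosen with earlier results of these data known. Named genes are the Sdh genes, the near-duplicate families, members below the filter, per comparison and complex the 2 largest differences called in each direction, called members against the majority (up to 4), the highest and lowest of each complex per kb, and from other lists Ppargc1a, Esrra, Esrrg and up to 3 called genes a comparison; fewer are printed where the text does not turn on them. Genes set beside these for contrast, such as Ndufs1 and Atp5b in cardiomyocytes, were chosen after their values were seen. Coordinates are those of the table, which for all 66 members match GENCODE M21 (GRCm38), and lengths are those of its principal transcripts. Promoters come from RefSeq (GRCm38.p6).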

Additional observations from a re-analysis of the deposited data

Results flagged for a closer look

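In 224 groups of 4 libraries checked for a value standing apart from the other 3 (Dixon's test, which flags about 5% of groups by chance), 12 were flagged. In P56 MI cardiomyocytes replicate 3 had the lowest sum of complex III, 7329 CPM, where the others lay between 12577 and 13128 CPM, and the lowest Sdhc, 737 CPM. In fibroblasts the flagged values were Atp5g2 at 1.10 CPM in P1 MI replicate 4 and at 0.816 CPM in P1 sham replicate 1, the complex I sum of 1243 CPM in P1 sham replicate 1, Sdhb at 48.7 CPM in P56 sham replicate 4 and Ndufa4 at 28.6 CPM in P56 sham replicate 1. In leukocytes they were replicate 2 of P1 MI, with sums of 4958 CPM over all members, 1576 CPM over complex I and 2282 CPM over ATP synthase, and Atp5g3 at 155 CPM in P56 MI replicate 1. In P1 MI endothelial cells Ndufa4 stood at 66.4 CPM in replicate 2.

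The change after MI differed between the ages for 7 members in fibroblasts (6 higher and 1 lower at P56, where 16.2% and 15.5% of all genes were called, so the members' shares did not exceed the background; 0 were higher scaled to all reads), 57 in leukocytes (1 higher and 56 lower, where 23.7% and 21.5% of all genes were called) and 5 in endothelial cells, all lower, where 2.02% of all genes were (limma, adjusted p under 0.05). The change with age was larger in cardiomyocytes than in each other population for 47 members, where 17.9% of all genes passed under the authors' scaling. The count was 24 scaled to nuclear protein-coding reads and 6 scaled to all reads, with no share of all genes beside these counts.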

How the results depend on the processing

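The counts of members higher with age in cardiomyocytes (63 to 64 with single libraries left out), lower with age in fibroblasts (39 to 44), higher with age in leukocytes (59 to 62) and lower after MI at P56 in leukocytes (61 to 63) kept within 1.5 times under every alternative tried, except for 13 in fibroblasts scaled to all reads. Other counts moved as follows; the cause was not tested. Members lower with age in cardiomyocytes were 0 with no filter, with the replicate block and without the libraries over 5% 18S (0 to 1 with single libraries left out). Members lower with age in endothelial cells were 1 with no filter and 1 with edgeR (0 to 2), and 25 to 39 were higher. After MI at P1, leukocyte members called lower were 2 scaled to all reads, 8 scaled to nuclear protein-coding reads and 3 without the 18S libraries (2 to 10). After MI at P56, cardiomyocyte members called lower were 3 under median-of-ratios scaling and 0 with the block, edgeR, either read scaling or without the 18S libraries (0 to 4). Fibroblast members were 15 higher and 1 lower scaled to all reads, and 1 lower with the block (24 to 40 higher, 1 to 3 lower). Leukocyte members called higher were 1 under either read scaling (0 to 1; 1 without P56 sham replicate 1), and endothelial members called lower 6 to 18. In the difference between ages, fibroblast members called higher were 14 under median-of-ratios scaling and 0 scaled to all reads (4 to 16), and those lower were 0 under both, with the block and without the 18S libraries, and 2 scaled to nuclear protein-coding reads (0 to 2). Leukocyte members called lower were 37 scaled to all reads (51 to 61), and endothelial members called lower were 10 with the block (2 to 12). Members with a larger change with age in cardiomyocytes were 6 scaled to all reads and 24 scaled to nuclear protein-coding reads (43 to 55). Of the 63 members called higher with age in cardiomyocytes and tested scaled to all reads, 4 were then below 0, among them Ndufs1 (-0.18) and Sdhd (-0.49), as was Ppargc1a (-0.24); scaled to nuclear protein-coding reads only Sdhd (-0.14) of the 64 was.

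The replicate block changed no other count by over 1.5 times. Same-numbered libraries of different populations deviated together in 12 of 24 pairs of groups, which is a hint from the data and not a stated pairing. Depth limits low genes: 3 reads were up to 0.409 CPM, near the level of Atp5g2 and Atp5l.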
